A study of Homo sapiens with 12 samples.

Results

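The genes described here are SERPINA3 and 9 further serpins, SERPINA1, SERPINB1, SERPINB6, SERPINB8, SERPINB9, SERPINF1, SERPINH1, SERPING1 and SERPINI1, which are 10 of the 31585 distinct gene loci in the deposited table. They were picked by name. SERPINA3 drew attention because its mRNA was already known to be very low in cells with YAP-2SA, so its values in that group are described and not tested. A locus was taken when its list of symbols held the gene, and each gene was on 1 row. The SERPINA3 row also lists SERPINA5, its neighbour on the same strand, and the SERPINB8 row also lists HMSD, so these rows cannot be divided between their genes.

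RNA was sequenced from A375 cells, a human melanoma line, in 4 groups of 3 libraries, and the question was how activated YAP and its partner TEAD change gene expression. Every group was A375 carrying a stably integrated retroviral vector and selected with hygromycin, grown on plastic with serum and, per the labels, taken 24 h after plating (the study's methods give a longer culture). Control cells carried the empty vector MSCV-IRES-Hygro. YAP-S127A lacks the site by which LATS kinases keep YAP in the cytoplasm, and YAP-S94A,S127A lacks that site and cannot bind TEAD. YAP-2SA (S127A,S381A) lacks the retention site and a site that marks YAP for degradation. The titles of the YAP-2SA libraries give these mutations while their condition field adds S94A, and the titles were followed. Each group is 1 transduced line with 3 libraries, and nothing in the labels says that lines were made independently, so the p-values measure only the spread between these libraries.

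YAP1, the transgene, was checked first. Its level was 34.1 and 33 FPKM (a fragment level scaled for transcript length and library size) in Control replicates 1 and 2, and between 130 and 187 FPKM in the 9 libraries with a YAP construct. The library labelled Control replicate 3 held 172 FPKM, within the range of the YAP-expressing cells and against its label. Differences of the serpins tested from Control are therefore given with and without it, while ratios of mean FPKM, medians and marker values are given only with it. Libraries within a group correlated at 0.96 to 0.975 across loci, and each library had 20161 to 20656 loci above 0. The depth is unknown, since the table holds no counts.

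Serpins are a family of proteins that share 1 fold, and most of them trap a protease by offering it a bait loop that is cut and then snaps into the body of the serpin. Clade A members such as SERPINA3 (alpha-1-antichymotrypsin, an inhibitor of cathepsin G and chymase) and SERPINA1 (alpha-1-antitrypsin, an inhibitor of neutrophil elastase) are secreted, mostly by the liver, and rise in plasma during an acute-phase response. Clade B members stay inside cells. Some serpins inhibit no protease: SERPINF1 (PEDF) is a secreted antiangiogenic and neurotrophic factor, and SERPINH1 (HSP47) is a collagen chaperone of the endoplasmic reticulum. YAP has no DNA-binding domain and reaches most of its targets through TEAD factors.

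The promoters of the 3 serpins that were lower in YAP-S127A than in YAP-S94A,S127A (SERPINA3, SERPINA1 and SERPINB1) are shown to give the sequence beside the values, with 1 of the 2 listed for SERPINH1, whose group means lay close together. Each is the RefSeq window of 300 bases, 250 before the annotated start and 50 after it, from a GRCh38.p14 table and matched letter for letter to GRCh37, where the coordinates stand. They run 5′ to 3′ on the gene's strand, and capitals mark matches to a searched motif on either strand.
SERPINA3 (chr14:95078478-95078777, + strand): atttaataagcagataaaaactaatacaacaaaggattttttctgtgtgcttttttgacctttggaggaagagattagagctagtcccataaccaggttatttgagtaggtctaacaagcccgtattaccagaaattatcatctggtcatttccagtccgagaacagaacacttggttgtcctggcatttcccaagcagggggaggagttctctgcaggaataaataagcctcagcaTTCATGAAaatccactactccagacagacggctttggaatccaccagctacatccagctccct
SERPINA1, outer start (chr14:94856923-94857222, - strand): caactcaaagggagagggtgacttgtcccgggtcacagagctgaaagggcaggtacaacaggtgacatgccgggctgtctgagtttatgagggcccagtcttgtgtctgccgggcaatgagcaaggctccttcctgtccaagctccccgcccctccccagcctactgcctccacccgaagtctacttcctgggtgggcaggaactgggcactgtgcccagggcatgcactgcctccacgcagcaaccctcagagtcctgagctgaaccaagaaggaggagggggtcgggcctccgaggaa
SERPINA1, inner start (chr14:94854890-94855189, - strand): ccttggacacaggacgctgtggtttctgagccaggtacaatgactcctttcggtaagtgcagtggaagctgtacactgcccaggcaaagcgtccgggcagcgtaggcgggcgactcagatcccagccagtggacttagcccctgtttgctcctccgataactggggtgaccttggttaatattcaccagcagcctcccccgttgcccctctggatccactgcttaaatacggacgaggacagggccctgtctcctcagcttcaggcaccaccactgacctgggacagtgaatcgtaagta
SERPINB1 (chr6:2842048-2842347, - strand): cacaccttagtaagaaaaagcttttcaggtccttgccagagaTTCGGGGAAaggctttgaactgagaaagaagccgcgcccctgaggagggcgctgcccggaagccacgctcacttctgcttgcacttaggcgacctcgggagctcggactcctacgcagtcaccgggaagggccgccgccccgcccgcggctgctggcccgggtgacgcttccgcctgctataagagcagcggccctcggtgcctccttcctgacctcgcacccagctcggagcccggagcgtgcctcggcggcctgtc
SERPINH1 (chr11:75273048-75273347, + strand): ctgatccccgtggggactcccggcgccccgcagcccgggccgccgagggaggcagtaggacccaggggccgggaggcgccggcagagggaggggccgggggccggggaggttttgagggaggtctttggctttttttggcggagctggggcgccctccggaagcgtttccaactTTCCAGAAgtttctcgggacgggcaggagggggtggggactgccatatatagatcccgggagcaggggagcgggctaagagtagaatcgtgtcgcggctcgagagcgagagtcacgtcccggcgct

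The motifs searched were the TEAD core GGAATG, the AP-1 site TGANTCA, the STAT site TTCNNNGAA and the heat shock element TTCNNGAA, the last of which was added after the SERPINH1 window had been read. Of 35116 RefSeq windows of this length, 14% held the TEAD core, 7.71% the AP-1 site, 7.66% the STAT site and 7.74% the heat shock element. None of the 13 windows of the 8 serpins with an entry held the TEAD core. The SERPINA3 window held 1 heat shock element beginning at position -13, counted from -1 just before the start, and no other motif, and its GC content was 42.3%. The SERPINB1 window held 1 STAT site beginning at position -208, both SERPINA1 windows held none of the motifs, and the SERPINH1 window shown held 1 heat shock element beginning at position -76. The other of the 2 SERPINH1 windows (chr11:75273268-75273567, + strand), which is not shown, held none of the motifs. The SERPINB8 window (chr18:61637065-61637364, + strand) held 2 AP-1 sites and 1 STAT site, and 1 of the 4 SERPINB6 windows held a heat shock element. A match is a run of letters and not a measured binding site.

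SERPINA3 mRNA was high in Control, YAP-S127A and YAP-S94A,S127A cells and almost lost in YAP-2SA cells. The gene lies at chr14:95078721-95090392 (GRCh37, + strand). Its level was 234, 308 and 415 FPKM in the 3 Control libraries, and 432, 359 and 438 FPKM in the 3 YAP-S94A,S127A libraries. In YAP-S127A cells it was 133, 211 and 163 FPKM. In YAP-2SA cells it was 1.92, 3.35 and 2.31 FPKM. The group means ran, from high to low, in the order YAP-S94A,S127A (410 ± 43.8 FPKM, SD, n = 3), Control (319 ± 91.2), YAP-S127A (169 ± 39.4) and YAP-2SA (2.53 ± 0.738). The ranges of YAP-S94A,S127A and Control overlapped, and each of the other neighbours in that order was separated by a gap. The library labelled Control replicate 3 was the highest Control library for SERPINA3, at 415 FPKM.

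**Figure D1:**
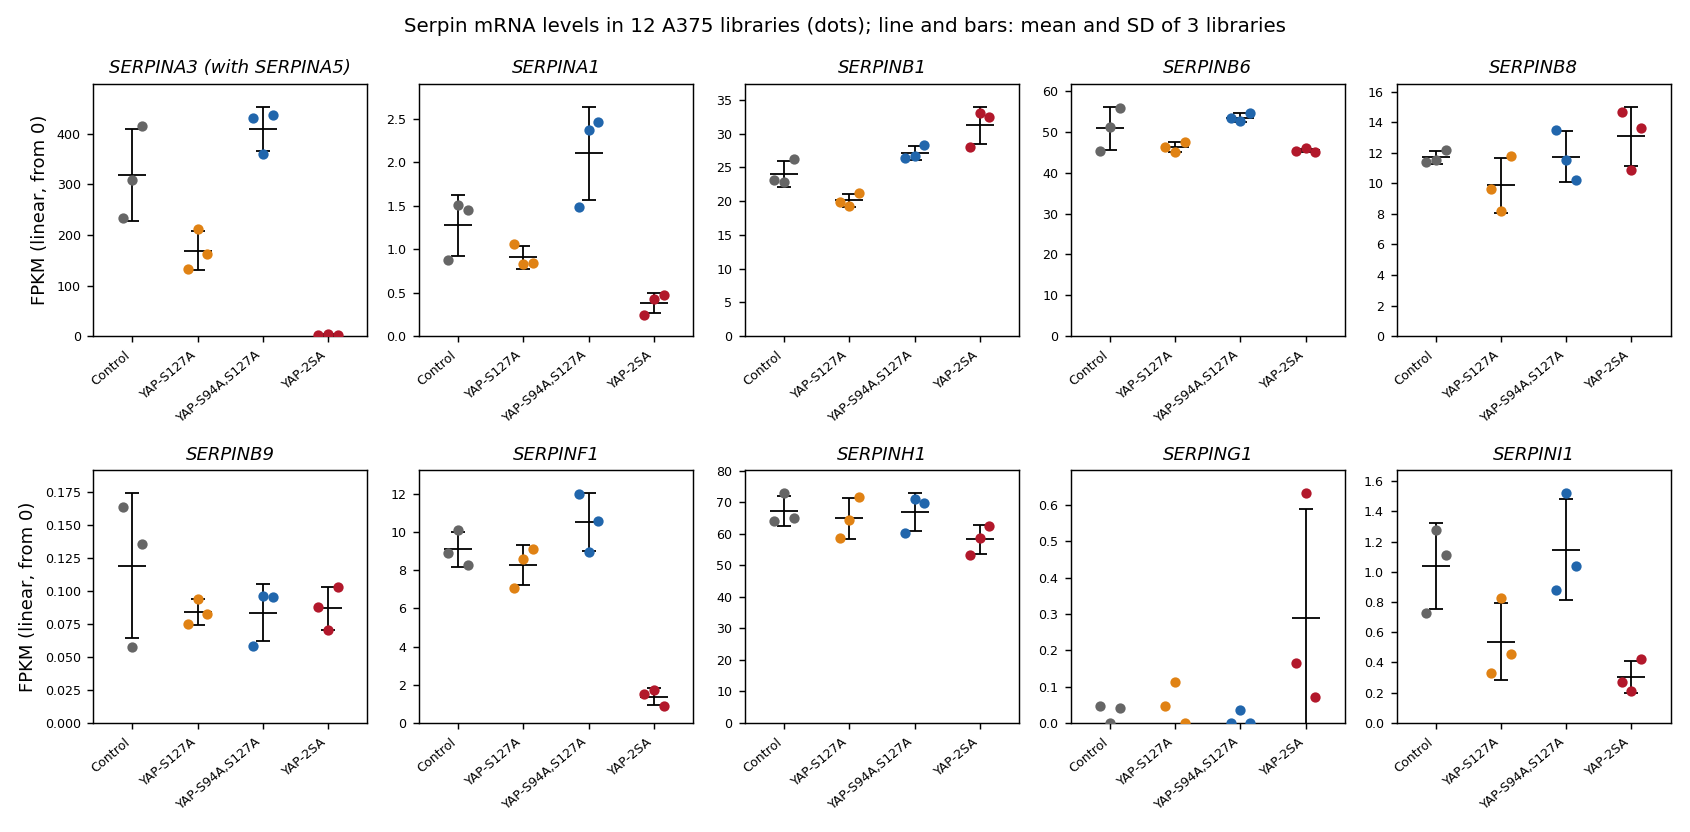
FPKM of the 10 serpins on linear axes from 0, 1 panel per gene, with 1 dot per library in 4 groups of A375 cells and a line and bars for the mean and SD of 3 libraries (left out where a library is at 0). SERPINA3 runs from 438 FPKM in YAP-S94A,S127A down to 1.92 FPKM in YAP-2SA, while SERPINH1 stays between 53.4 and 72.8 FPKM throughout.

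Among the 10 serpins SERPINA3 was the most abundant in 3 of the 4 groups, since FPKM is a level per length and can be compared between genes. The summed FPKM of the 10 serpins was 484 ± 98.7 (SD, n = 3) in Control, of which SERPINA3 made up 65.1% ± 5.41. The SERPINA3 share was 52.4% ± 5.73 in YAP-S127A, 70.2% ± 2.54 in YAP-S94A,S127A and 1.65% ± 0.45 in YAP-2SA, where the sum was 153 ± 6.51 FPKM. SERPINA3 ranked 1 among the 10 in the other groups and 5 in YAP-2SA, where SERPINH1, SERPINB6, SERPINB1 and SERPINB8 stood above it.

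**Figure D2:**
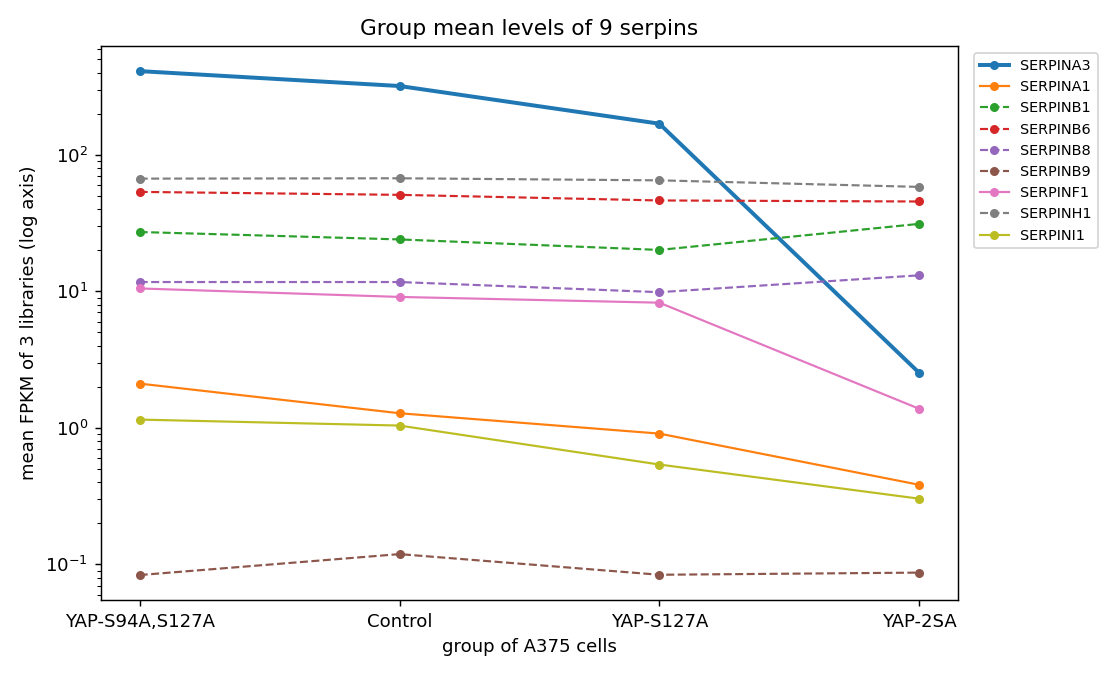
Mean FPKM of 3 libraries on a log axis for 9 of the serpins (SERPING1, with libraries at 0, is left out), with the groups in the order of their mean SERPINA3 level; lines only join the values of 1 gene, and solid lines mark SERPINA3, SERPINA1, SERPINF1 and SERPINI1. SERPINA3 is at 169 FPKM in YAP-S127A and at 2.53 FPKM in YAP-2SA, below SERPINH1 (58.2), SERPINB6 (45.5), SERPINB1 (31.2) and SERPINB8 (13.1).

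YAP-S127A against YAP-S94A,S127A asks what YAP does when it can bind TEAD, and compares no YAP-2SA or Control library. It is not an independent test of SERPINA3. The paper reports that most genes changed by YAP-2SA moved in YAP-S127A as well, though less. The choice of SERPINA3 thus already favoured a fall here. YAP-2SA and Control libraries also enter the fit through the shared estimate of the spread. Without YAP-2SA replicate 3 the adjusted p of SERPINA3 was 0.00972 in place of 0.00515 (limma). Of the 8 serpins with at least 1 FPKM in at least 3 libraries, 3 were lower in YAP-S127A at an adjusted p under 0.05 and none was higher, where 4.31% of all 15055 loci tested were lower and 6.36% were higher. For 2 of them, SERPINA3 and SERPINA1, the ratio of mean FPKM was also over 2, against 3.49% of loci in either direction. These counts hold SERPINA3 and also SERPINA1, which entered the test mostly through groups where it is high. The serpins besides SERPINA3 were picked with earlier results of these data known. No excess over all loci is therefore read from these counts. At an unadjusted p under 0.05 in this limma test, 5 of the 8 serpins were lower and none was higher. No share of all loci at that threshold was taken, so nothing is read from that count either. The median difference in log2(FPKM + 1) over the 8 serpins was -0.36, and over all loci -0.01.

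SERPINA3 was 2.42-fold higher in mean FPKM in YAP-S94A,S127A than in YAP-S127A, and the 3 libraries of each group did not overlap. The difference of YAP-S127A from YAP-S94A,S127A in log2(FPKM + 1) was -1.29 ± 0.23 (SE; 95% interval -1.80 to -0.78; adjusted p = 0.00515, limma). SERPINA3 stayed past the threshold in each of 20 alternative fits, with differences between -1.46 and -1.13 and adjusted p between 0.0032 and 0.0251.

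SERPINA1, at chr14:94843084-94857030 (GRCh37, - strand), was low throughout and lowest in YAP-2SA. It was 0.871, 1.51 and 1.45 FPKM in Control, 1.06, 0.826 and 0.839 FPKM in YAP-S127A and 1.49, 2.37 and 2.46 FPKM in YAP-S94A,S127A. It was 0.247, 0.43 and 0.47 FPKM in YAP-2SA. YAP-S94A,S127A was 2.32-fold above YAP-S127A in mean FPKM, without overlap, and the difference in log2(FPKM + 1) was -0.69 ± 0.15 (SE; 95% interval -1.03 to -0.35; adjusted p = 0.0177, limma). This call was lost when YAP-S127A replicate 2 (adjusted p = 0.0517) or 3 (0.0559), or YAP-S94A,S127A replicate 2 (0.0647) or 3 (0.0775), was left out, and over 19 alternatives the adjusted p ran from 0.00843 to 0.0775. Only 6 libraries reached 1 FPKM, none of them of YAP-2SA, so the added 1 shrinks its differences. In YAP-S127A only replicate 1 did, at 1.06 FPKM. SERPINA1 thus entered the test mostly through groups where it is high, and nothing is read from its p-values.

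**Figure D3:**
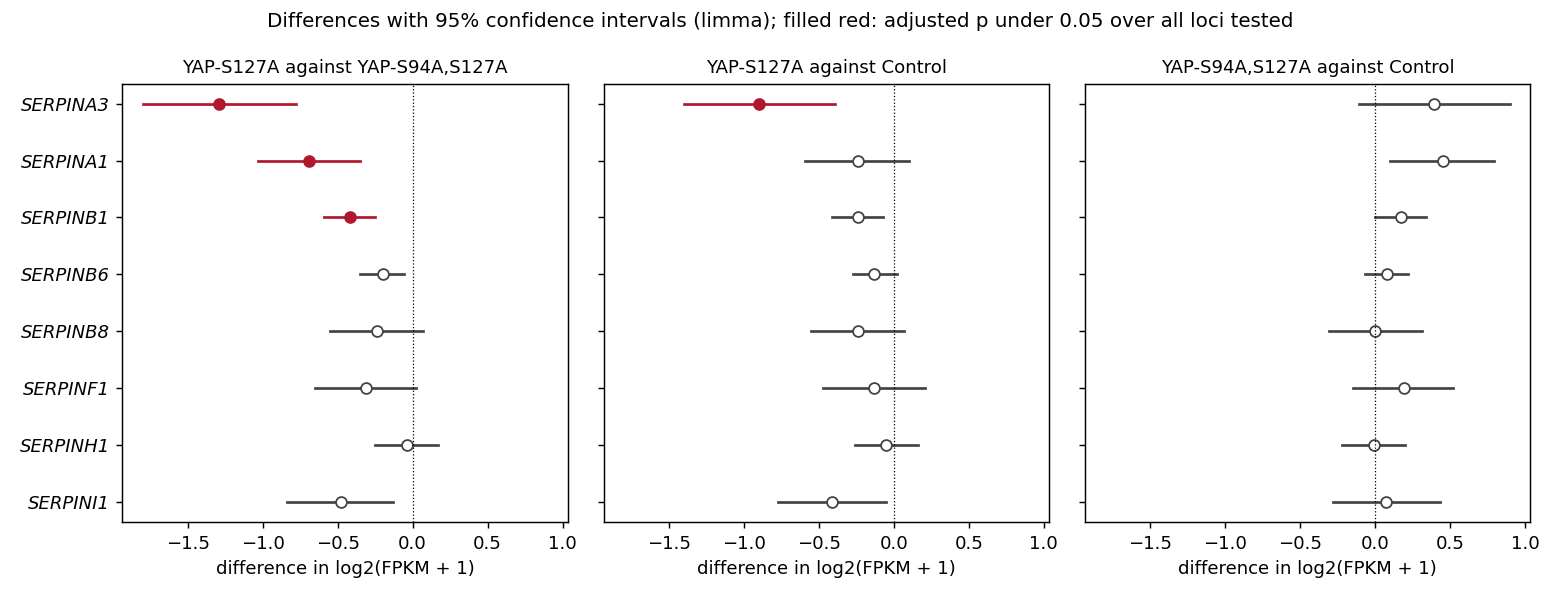
Difference in log2(FPKM + 1) with its 95% confidence interval (limma, 3 libraries a group) for the 8 serpins tested, in 1 panel for each of 3 comparisons; filled red points have an adjusted p under 0.05 over 15055 loci. In YAP-S127A against YAP-S94A,S127A the points for SERPINA3 (-1.29), SERPINA1 (-0.69) and SERPINB1 (-0.42) are red, and in YAP-S94A,S127A against Control no point is.

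The clade B serpins SERPINB1, SERPINB6, SERPINB8 and SERPINB9 act inside cells. SERPINB1, an inhibitor of neutrophil elastase, cathepsin G and proteinase 3 at chr6:2832566-2842193 (GRCh37, - strand), was 23.1, 22.8 and 26.2 FPKM in Control and 19.8, 19.3 and 21.2 FPKM in YAP-S127A. It was 26.4, 26.7 and 28.3 FPKM in YAP-S94A,S127A and 28, 33.1 and 32.5 FPKM in YAP-2SA. YAP-S127A was the lowest group and did not overlap with the others. Its difference from YAP-S94A,S127A was -0.42 ± 0.08 in log2(FPKM + 1) (SE; 95% interval -0.59 to -0.25; adjusted p = 0.00641, limma), and the call held in 20 of 20 alternatives, with adjusted p from 0.00344 to 0.0334. SERPINB1 had its highest mean in YAP-2SA, where SERPINA3 had its lowest.

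SERPINB6, an intracellular inhibitor of cathepsin G and trypsin-like proteases at chr6:2948393-2972399 (GRCh37, - strand), was 45.3, 51.3 and 56 FPKM in Control, 46.4, 45 and 47.6 in YAP-S127A, 53.4, 52.6 and 54.6 in YAP-S94A,S127A and 45.4, 46 and 45.2 in YAP-2SA. YAP-S127A lay below YAP-S94A,S127A without overlap, by -0.20 in log2(FPKM + 1) (95% interval -0.35 to -0.06), with an adjusted p of 0.0798 that missed the threshold. Without Control replicate 1 or 3, which enter through the shared estimate of the spread, the adjusted p was 0.0237 or 0.0352, and over 20 alternatives it ran from 0.0237 to 0.214.

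SERPINB8, an intracellular inhibitor of furin at chr18:61637263-61687013 (GRCh37, + strand), ranged from 8.2 to 14.7 FPKM over the 12 libraries. Its group means were 11.7 ± 0.419 FPKM (SD, n = 3) in Control, 9.86 ± 1.8 in YAP-S127A, 11.7 ± 1.66 in YAP-S94A,S127A and 13.1 ± 1.95 in YAP-2SA. Every pair of groups overlapped. The difference of YAP-S127A from YAP-S94A,S127A was -0.24 in log2(FPKM + 1), with a 95% interval of -0.55 to 0.07 and an adjusted p of 0.337. SERPINB9, which protects cells from granzyme B, lies beside SERPINB1 and SERPINB6 at chr6:2887504-2903543 (GRCh37, - strand) but was not tested, since no library reached 1 FPKM. Its 12 values lay between 0.0578 and 0.164 FPKM.

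The secreted serpins SERPINF1 and SERPINI1 also had their lowest means in YAP-2SA. SERPINF1, at chr17:1665323-1680859 (GRCh37, + strand), was 8.92, 10.1 and 8.29 FPKM in Control, 7.09, 8.58 and 9.11 in YAP-S127A, 12, 8.96 and 10.6 in YAP-S94A,S127A and 1.51, 1.73 and 0.891 in YAP-2SA. The first 3 groups overlapped, and YAP-2SA lay below all of them. The difference of YAP-S127A from YAP-S94A,S127A was -0.31 in log2(FPKM + 1) (95% interval -0.65 to 0.02; adjusted p = 0.235).

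SERPINI1 (neuroserpin, an inhibitor of tissue plasminogen activator), at chr3:167453031-167543357 (GRCh37, + strand), was 0.727, 1.28 and 1.11 FPKM in Control and 0.331, 0.826 and 0.459 FPKM in YAP-S127A. It was 0.879, 1.52 and 1.04 FPKM in YAP-S94A,S127A and 0.273, 0.214 and 0.421 FPKM in YAP-2SA. YAP-S127A stayed below YAP-S94A,S127A without overlap, at -0.48 ± 0.16 in log2(FPKM + 1) (SE; 95% interval -0.84 to -0.13; adjusted p = 0.0871, limma). The adjusted p was 0.0472 without YAP-S127A replicate 2, and 0.0472 to 0.244 over 19 alternatives. Only 4 libraries reached 1 FPKM, none of YAP-S127A or YAP-2SA. SERPINI1 thus entered the test only through groups where it is high, and nothing is read from its p-values.

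SERPINH1, at chr11:75273101-75283828 (GRCh37, + strand), differed little between groups. It was 64.1, 72.8 and 64.9 FPKM in Control, 58.8, 64.3 and 71.8 in YAP-S127A, 60.1, 70.9 and 69.7 in YAP-S94A,S127A and 53.4, 58.7 and 62.6 in YAP-2SA. The YAP-2SA libraries lay just below those of Control and overlapped with the other groups. The difference of YAP-S127A from YAP-S94A,S127A was -0.04 in log2(FPKM + 1), with a 95% interval of -0.25 to 0.17 and an adjusted p of 0.834. SERPING1 (C1 inhibitor, the regulator of the first complement component), at chr11:57364860-57386644 (GRCh37, + strand), was not tested. It was 0.0461, 0 and 0.0396 FPKM in Control and 0.0468, 0.112 and 0 FPKM in YAP-S127A. It was 0, 0.036 and 0 FPKM in YAP-S94A,S127A and 0.166, 0.632 and 0.0703 FPKM in YAP-2SA. The YAP-2SA libraries were above those of Control, but all 12 values were under 1 FPKM.

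Against Control, YAP-S127A lowered SERPINA3 to 0.53 of the Control mean, and the libraries of the 2 groups did not overlap. The difference in log2(FPKM + 1) was -0.90 ± 0.23 (SE; 95% interval -1.40 to -0.39; adjusted p = 0.0448, limma). SERPINA3, noticed for its fall in YAP-2SA against Control, was the 1 serpin of 8 called lower, where 1.75% of loci were called lower. None was called higher, where 4.56% of loci were. At an unadjusted p under 0.05 by limma, 3 were lower and none was higher. The share of all loci at that threshold was not taken, so nothing is read from this count. No call also had a ratio over 2, where 2.47% of loci did. The call was not stable. Without the library labelled Control replicate 3 the difference was -0.69 and the adjusted p 0.135. The call was lost as well without Control replicate 2, YAP-S127A replicate 1 or 3, any 1 of the YAP-S94A,S127A libraries, or YAP-2SA replicate 1 or 3, with adjusted p up to 0.142. In all it was lost in 12 of 20 alternatives, over which the adjusted p ran from 0.0211 to 0.155.

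The other 7 serpins were not called in YAP-S127A against Control. SERPINB1 lay below Control without overlap, at -0.24 in log2(FPKM + 1) (95% interval -0.41 to -0.07; adjusted p = 0.104, and 0.272 without Control replicate 3). SERPINI1 was at -0.41 (95% interval -0.77 to -0.05; adjusted p = 0.188, and 0.34 without that library) and SERPINA1 at -0.24 (95% interval -0.59 to 0.10; adjusted p = 0.433, and 0.665 without it). SERPINB6, SERPINB8, SERPINF1 and SERPINH1 lay between -0.24 and -0.05, with adjusted p from 0.335 to 0.828, and without it between -0.21 and -0.06, with adjusted p from 0.576 to 0.796. The median difference of the 8 was -0.24.

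In YAP-S94A,S127A, which cannot bind TEAD, no serpin was called against Control in either direction, where 0.0864% of loci were higher and 0.093% lower, and 0.173% passed with a ratio over 2. By limma at an unadjusted p under 0.05, 2 serpins were higher, SERPINA1 and SERPINB1, and none was lower. No share of all loci at that threshold was taken, so nothing is read from this count. SERPINA1 was at 0.45 in log2(FPKM + 1) (95% interval 0.10 to 0.79, adjusted p = 0.908). SERPINB1 was at 0.17 (adjusted p = 1), and its libraries lay above Control without overlap. SERPINA3 was at 0.39 (95% interval -0.11 to 0.90; adjusted p = 1), and without the library labelled Control replicate 3 at 0.60 (adjusted p = 0.852). SERPINA1 was then at 0.51 (adjusted p = 0.838) and SERPINB1 at 0.24 (adjusted p = 0.792). These intervals leave room for differences of more than 0.5 in SERPINA3, so equal levels are not shown. SERPINB6, SERPINF1, SERPINH1 and SERPINI1 lay between -0.01 and 0.19 with an adjusted p of 1 (without that library between -0.03 and 0.15, with adjusted p from 0.865 to 1), and SERPINB8 averaged 11.7 FPKM in both groups. The median over the 8 was 0.13, against 0.01 over all loci.

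YAP-2SA against Control is the comparison by which SERPINA3 was noticed, so its differences are given without a test. Mean FPKM was 126-fold lower for SERPINA3, 6.61-fold lower for SERPINF1, 3.43-fold lower for SERPINI1 and 3.34-fold lower for SERPINA1, and in each of these the YAP-2SA libraries lay below those of Control. Differences in log2(FPKM + 1) were -6.48 for SERPINA3, -2.10 for SERPINF1, -0.71 for SERPINA1, -0.64 for SERPINI1, -0.21 for SERPINH1, -0.15 for SERPINB6, 0.14 for SERPINB8 and 0.36 for SERPINB1. Without the library labelled Control replicate 3, SERPINA3 was at -6.27, SERPINF1 at -2.16, SERPINA1 at -0.65, SERPINI1 at -0.61, SERPINH1 at -0.23, SERPINB6 at -0.08, SERPINB8 at 0.17 and SERPINB1 at 0.42. The median over the 8 serpins was -0.42, against 0.01 over all loci. The fit called 1 serpin higher and 4 lower, and 4 with a ratio over 2, where 22.9%, 19.5% and 15.5% of loci were. SERPINA3 is among the lower ones, and nothing is read from these counts.

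Against YAP-S127A, which shares those YAP-2SA libraries, SERPINA3 was 66.9-fold lower in mean FPKM in YAP-2SA, SERPINF1 6-fold and SERPINA1 2.37-fold, and SERPINB1 was 1.55-fold higher. SERPINI1 overlapped between the 2 groups, at -0.23 in log2(FPKM + 1). Here 1 serpin was called higher, 3 lower and 3 with a ratio over 2, where 18.3%, 14.5% and 11.1% of loci were. These counts again hold SERPINA3 and the YAP-2SA libraries it was chosen on, and nothing is read from them. The median over the 8 serpins was -0.19, against 0.02 over all loci.

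Markers of the cells moved with these values. The 10 melanocyte and melanoma markers summed to 437 to 531 FPKM in Control, 359 to 456 in YAP-S127A, 524 to 541 in YAP-S94A,S127A and 176 to 190 in YAP-2SA. SOX10, a neural crest factor of melanocytes, was 234 to 281 FPKM in Control and 4.53 to 7.25 FPKM in YAP-2SA. MITF and MCAM went the other way, from 5.01 to 11 and 71.7 to 81.8 FPKM in Control to 30.1 to 41 and 133 to 147 FPKM in YAP-2SA. Of the 5 markers tested there, 2 were higher and 3 lower, where 22.9% and 19.5% of all loci were. The pigment genes PMEL, MLANA, TYR and DCT were under 1 FPKM in all 12 libraries. The 6 epithelial markers summed to 180 to 216 FPKM in Control, 405 to 436 in YAP-S127A, 185 to 192 in YAP-S94A,S127A and 1217 to 1394 in YAP-2SA, mostly KRT18 and KRT8. KRT14 went from 6.16 to 7.62 FPKM in Control to 0.362 to 0.551 FPKM in YAP-2SA, so that 3 were higher and 1 lower of 4 tested, and EPCAM and CDH1 were under 1 FPKM in all 12 libraries. The 5 fibroblast markers summed to 45.7 to 48.2 FPKM in Control, 57.7 to 59.1 in YAP-S127A, 43.3 to 52 in YAP-S94A,S127A and 80.5 to 89.4 in YAP-2SA. The part of these shifts in the serpin values was not tested.

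Markers of the cells best known to make the clade A serpins or to hold their targets were near 0. The 4 hepatocyte markers summed to at most 0.409 FPKM in any library, with ALB at 0 in all 12, and the 4 endothelial markers to at most 1.45 FPKM. Of the 6 leukocyte markers, PTPRC was at most 0.0119 FPKM, and their sum, 74.8 to 117 FPKM, was nearly all from the row that lists CD68 with MPDU1, whose genes cannot be told apart. In bulk RNA, fewer cells with a transcript and less of it per cell cannot be told apart.

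The loci whose log2(FPKM + 1) followed SERPINA3 most closely over the 12 libraries were EPHA3 (Pearson r = 0.999), GBP2,GBP7 (0.9986), ANKH (0.9983), AK093534,GNAS (0.9982) and C17orf57,ITGB3 (0.9982). EPHA3, an ephrin receptor kinase, averaged 23.6 FPKM in Control, 15.7 in YAP-S127A, 27.6 in YAP-S94A,S127A and 1.12 in YAP-2SA. Of the serpins, SERPINF1 (0.983), SERPINA1 (0.834) and SERPINI1 (0.774) were closest to SERPINA3, SERPINB6 (0.646) and SERPINH1 (0.642) followed, and SERPINB8 (-0.406) and SERPINB1 (-0.575) were negative. These values describe 12 libraries in 4 groups and rest largely on the 3 YAP-2SA libraries, which stand apart.

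Of 26 other serpin genes, 22 were found and 4 were tested, of which 1 was higher and 2 were lower in YAP-S127A against YAP-S94A,S127A and 2 were higher and 2 lower in YAP-2SA against Control. Of all loci, 6.36% were higher and 4.31% lower in the first comparison, and 22.9% and 19.5% in the second. Every gene of this list and of those below named with an adjusted p in YAP-2SA against Control stayed past the threshold, in the same direction, without the library labelled Control replicate 3. SERPINE2 (protease nexin-1, a thrombin and plasminogen activator inhibitor) was by far the most abundant serpin in the table. It was 1709, 1882 and 2083 FPKM in Control, 1182, 1268 and 1297 in YAP-S127A, 2002, 1880 and 2155 in YAP-S94A,S127A and 369, 384 and 365 in YAP-2SA. It fell by 0.69 in log2(FPKM + 1) in YAP-S127A against YAP-S94A,S127A (adjusted p = 4.4e-04, limma) and by 2.34 in YAP-2SA against Control (adjusted p = 4.8e-09). Its group means came in the same order as those of SERPINA3.

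SERPINB7, an intracellular serpin of the epidermis, went the other way. It was 0.194 to 0.299 FPKM in Control, 1.95 to 2.24 in YAP-S127A, 0.0981 to 0.198 in YAP-S94A,S127A and 7.38 to 8.06 in YAP-2SA. It rose by 1.45 in log2(FPKM + 1) in YAP-S127A against YAP-S94A,S127A and by 2.82 in YAP-2SA against Control. It reached 1 FPKM only in YAP-S127A and YAP-2SA libraries. It thus entered the test through groups where it is high, and no p is given for it. SERPIND1 (heparin cofactor II) fell by 0.55 and 0.90 in these comparisons, from a Control mean of 1.07 FPKM. It reached 1 FPKM only in Control and YAP-S94A,S127A libraries, where it is high, so no p is given for it either.

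**Figure D4:**
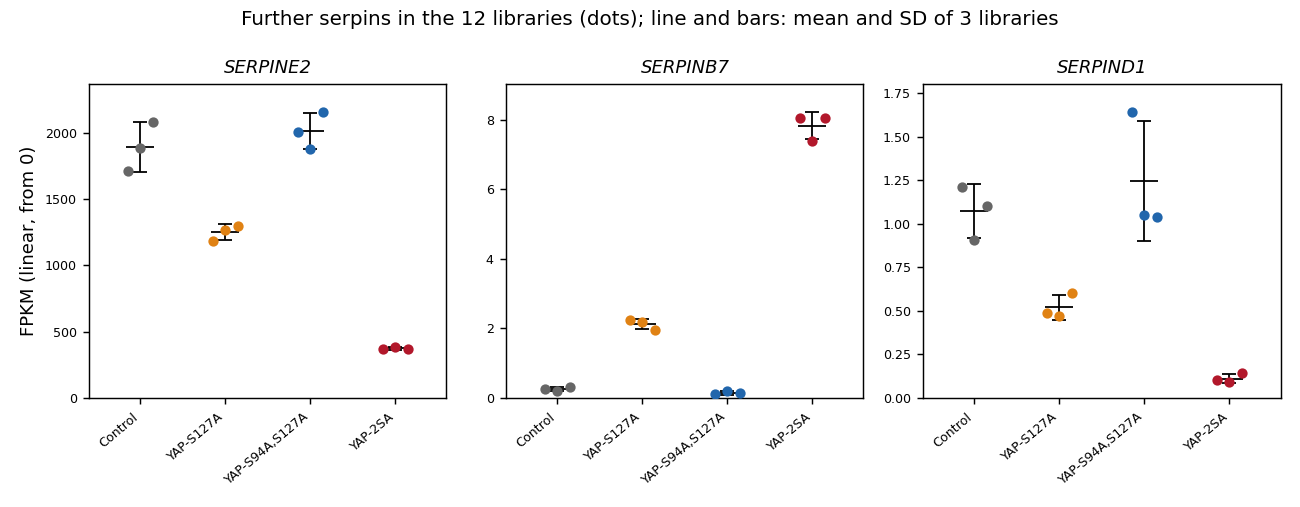
FPKM of SERPINE2, SERPINB7 and SERPIND1 on linear axes from 0, with 1 dot per library in 4 groups and a line and bars for the mean and SD of 3 libraries. SERPINE2 and SERPIND1 are lowest in YAP-2SA, as SERPINA3 is, and SERPINB7 is highest there, at 7.38 to 8.06 FPKM.

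The proteases that the serpins act on were mostly low, with 14 of 33 tested. In YAP-S127A against YAP-S94A,S127A, 1, CTSL1, was lower (-0.25 in log2(FPKM + 1), adjusted p = 0.0494) and none higher, and in YAP-2SA against Control 6 were higher and 3 lower (5 and 3 without the library labelled Control replicate 3). Of all loci, 6.36% were higher and 4.31% lower in the first comparison, and 22.9% and 19.5% in the second. FURIN, the target of SERPINB8, fell from a mean of 37.2 to 20.9 FPKM in YAP-2SA (-0.80, adjusted p = 1.6e-05), and PLAT, tissue plasminogen activator and the target of SERPINI1, from 42.9 to 24.7 FPKM (-0.77, adjusted p = 5.7e-05). GZMB, the granule protease that SERPINB9 inhibits, fell from 4.21, 3.27 and 3.72 FPKM in Control to 0.0777, 0.0673 and 0.0651 FPKM in YAP-2SA (-2.14 in log2(FPKM + 1), limma). GZMB reached 1 FPKM in every library but those of YAP-2SA. It thus entered the test through groups where it is high, and no p is given for it. The lysosomal proteases CTSH and CTSL2 rose, CTSH from a mean of 4.91 to 12.6 FPKM (1.22, adjusted p = 2.4e-04) and CTSL2 from 0.678 to 1.66 FPKM (0.65). CTSL2 reached 1 FPKM only in YAP-S127A and YAP-2SA libraries, where it is high, so no p is given for it.

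The genes around SERPINH1, which fold and modify collagen, had 21 of 23 tested. In YAP-S127A against YAP-S94A,S127A, 1 was higher and none lower, and in YAP-2SA against Control 4 were higher and 6 lower, with a median of -0.18 (3 and 4 without the library labelled Control replicate 3). Of all loci, 6.36% were higher and 4.31% lower in the first comparison, and 22.9% and 19.5% in the second. LEPREL1, a prolyl 3-hydroxylase of collagen, averaged 1.61 FPKM in Control, 4.41 in YAP-S127A, 1.41 in YAP-S94A,S127A and 19.4 in YAP-2SA. It rose by 1.17 in log2(FPKM + 1) in YAP-S127A against YAP-S94A,S127A (adjusted p = 5.8e-04, limma) and by 2.99 in YAP-2SA against Control (adjusted p = 5.4e-08). SPARC, a collagen-binding matrix protein, fell from 586 to 279 FPKM in YAP-2SA (-1.07, adjusted p = 3.2e-06).

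Acute-phase and IL-6 family genes, among which SERPINA3 and SERPINA1 are counted in the liver, were followed as a list. Of 35 on the list 21 were tested, 1 was lower and none higher in YAP-S127A against YAP-S94A,S127A, and 7 were higher and 6 lower in YAP-2SA against Control (6 and 5 without the library labelled Control replicate 3), where 22.9% and 19.5% of all loci were. In the first comparison 4.31% of all loci were lower and 6.36% higher. OSMR, the oncostatin M receptor, rose from 9.95 to 26.9 FPKM in YAP-2SA (1.36 in log2(FPKM + 1), adjusted p = 8.8e-07, limma). SAA1, an acute-phase apolipoprotein, was at most 0.412 FPKM in the other groups and 2.24, 3.06 and 2.44 FPKM in YAP-2SA. The cytokine IL1B was at most 0.271 FPKM in the other groups and 1.14, 1.88 and 1.22 FPKM in YAP-2SA. Both are among the 7 but reached 1 FPKM only in the YAP-2SA libraries, so they entered the test through the group where they are high, and no p is given for them. A2M, a broad protease trap, fell from 1.02, 1.68 and 3.44 FPKM in Control to 0, 0.0585 and 0.0396 FPKM in YAP-2SA. A2M reached 1 FPKM in no YAP-2SA library and entered the test through groups where it is high, so no p is given for it. IL1A fell from a mean of 1.21 to 0.077 FPKM in YAP-2SA and was lower in YAP-S127A than in YAP-S94A,S127A (0.7 against 1.58 FPKM). It reached 1 FPKM only in Control and YAP-S94A,S127A libraries, where it is high, so no p is given for it.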

How the data were processed

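Per the study's methods and the submitters' processing notes, the authors made TruSeq libraries, sequenced them on a HiSeq2000, aligned the reads to hg19 with the UCSC known genes (bcl2fastq 2.15.0, Bowtie2 2.0.0, TopHat2 2.0.4) and summarised genes with Cufflinks 2.0.2. The deposited table gives log2(FPKM + 1) per locus for 12 libraries, and how reads matching several places were shared is not given in the sources used here. It held 31588 rows, of which 3 identical ones were removed, and 2179 rows list several symbols. Steps of low FPKM values did not give whole reads, so depth is unknown and no count test was run. Back-transformed FPKM are printed as levels.

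The test was limma 3.58.1 (R 4.3.3) on the deposited scale, using every library, a mean for each of the 4 groups and a trended prior variance, over 15055 loci with at least 1 FPKM in at least 3 libraries. P-values were two-sided and Benjamini-Hochberg adjusted over all of them, with 0.05 as the threshold, and fold changes on the log2(FPKM + 1) scale understate changes of low genes. Adjusted p-values in the text come from this fit. Alternatives were a pseudocount of 0.1, no filter and a stricter one, other scalings, fewer groups, a replicate block and each library left out. The fit was tested on simulated data.

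The members and lists were chosen with earlier results of these data known. All members are named. Of other lists, genes with an adjusted p under 0.05 and a mean FPKM ratio over 2 in YAP-S127A against YAP-S94A,S127A or YAP-2SA against Control are named, at most 6 a list, with the 5 loci most correlated with SERPINA3 and, as the check of the labels, YAP1. CTSL1, FURIN, PLAT, C1S and single marker genes were named after their values were seen. A few genes of the lists are not reported here. Figures used Python 3.11.15 and matplotlib 3.10.9.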

Additional observations from a re-analysis of the deposited data

How the results depend on the processing

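The count of serpins called in YAP-S127A against Control, 1 in the reported fit, was 0 with a pseudocount of 0.1, 0 without the filter, and 0 when only the 6 libraries compared were fitted. With the replicate number as a block it was 2, as SERPINB1 reached an adjusted p of 0.0497. The loci called in these 5 fits were 950, 925, 920, 447 and 1032, in the order named. Leaving out 1 library gave 0 to 1 there, 2 to 4 in YAP-S127A against YAP-S94A,S127A, 0 to 0 in YAP-S94A,S127A against Control, 5 to 6 in YAP-2SA against Control and 3 to 4 in YAP-2SA against YAP-S127A. A stricter filter, under which fewer serpins are tested, gave 3 in YAP-2SA against Control where the reported fit gave 5. The loci called were 4222 and 6375. Replicate numbers do not pair the libraries: of 18 pairs with the same number, 2 deviated together with r over 0.1, and r ran from -0.149 to 0.163. The block gave 4 serpins in YAP-S127A against YAP-S94A,S127A in place of 3, with SERPINI1 at an adjusted p of 0.048. It called 1771 loci there in place of 1607. With a pseudocount of 0.1 the YAP-2SA difference from Control was -6.92 for SERPINA3, -2.68 for SERPINF1, -1.51 for SERPINA1 and -1.50 for SERPINI1, which follows from adding less to low values. No called difference changed sign. The cause of the other changes was not tested. The depth behind the values near 0 of SERPINB9 and SERPING1 is unknown.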

Other observations

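Complement genes and serpin receptors were followed as further lists. Some complement genes, C1R and C1S among them, are also on the list of target proteases above. The C1S row is thus among the higher ones of both lists in YAP-2SA against Control. Of 14 classical complement genes and regulators, 9 were tested. In YAP-2SA against Control 3 were higher and 1 lower, where 22.9% and 19.5% of all loci were. The 3 include CLU and the row that lists C1S with EMG1, whose genes cannot be told apart. In YAP-S127A against YAP-S94A,S127A 1, CLU, was higher and 1 lower, where 6.36% and 4.31% of all loci were. CLU (clusterin, a secreted chaperone that blocks the terminal complement complex) was 2.58, 3.2 and 2.74 FPKM in Control, 6.73, 7.61 and 8.06 in YAP-S127A, 2.17, 2.77 and 2.91 in YAP-S94A,S127A and 21, 22.6 and 21.9 in YAP-2SA, and rose by 1.23 in log2(FPKM + 1) in YAP-S127A against YAP-S94A,S127A (adjusted p = 2.6e-05, limma). CFI, the protease that degrades C3b, fell from a mean of 7.19 FPKM in Control to 1.48 in YAP-2SA (-1.72, adjusted p = 8.0e-06).

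Of 10 receptors of PEDF and of serpin uptake, 8 were tested. In YAP-S127A against YAP-S94A,S127A 1 was higher and none lower, where 6.36% and 4.31% of all loci were. In YAP-2SA against Control 3 were higher and 1 lower, where 22.9% and 19.5% of all loci were. Without the library labelled Control replicate 3, 3 were higher and 2 lower. PLXDC2, a PEDF receptor, averaged 0.621 FPKM in Control, 2.62 in YAP-S127A, 0.966 in YAP-S94A,S127A and 7.72 in YAP-2SA. It rose by 0.89 in log2(FPKM + 1) in YAP-S127A against YAP-S94A,S127A, while SERPINF1, which encodes PEDF, was at 1.38 FPKM in YAP-2SA. Outside YAP-S127A and YAP-2SA, PLXDC2 reached 1 FPKM only in YAP-S94A,S127A replicate 2 (1.3 FPKM), so no p is given for it. VLDLR rose from 1.15 to 2.52 FPKM in YAP-2SA (adjusted p = 2.3e-04) and LRP6 fell from 14.6 to 6.74 FPKM (adjusted p = 1.9e-04). LRP1, which takes up serpin and protease complexes, was 4.7, 4.18 and 22.1 FPKM in Control and 19.5, 33.1 and 25.1 FPKM in YAP-2SA (adjusted p = 0.0311). These groups overlapped, since the library labelled Control replicate 3, whose YAP1 level goes against its label, was the high one, and without it the difference was 2.27 in log2(FPKM + 1) (adjusted p = 5.2e-04) in place of 1.58.

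Serpins under the filter were mostly at or near 0. SERPINA6 (the cortisol carrier), which lies in the same cluster on chromosome 14 as SERPINA1 and SERPINA3, was 0.415, 0.785 and 0.635 FPKM in Control, 0.426, 0.367 and 0.262 in YAP-S127A, 0.453, 0.625 and 0.451 in YAP-S94A,S127A, and 0, 0.0425 and 0 in YAP-2SA. SERPINA4, SERPINA9, SERPINA11 and SERPINA12 of that cluster were listed at 0 in all 12 libraries. These genes were picked for naming after their values were seen, as was SERPINF2, which lies next to SERPINF1 on chromosome 17 and was 0.756, 0.679 and 0.669 FPKM in Control and 0.602, 0.601 and 0.686 FPKM in YAP-2SA.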
